A study of Homo sapiens with 4 samples.

Results

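Dense distal clusters of H3K27ac are stretches of chromatin away from gene ends in which many H3K27ac summits lie close together. In MHCC97L cells, an established human hepatocellular carcinoma line, 590 such clusters were found among 15744 distal H3K27ac clusters of any size. A summit is the position of highest signal in a peak of chromatin immunoprecipitation followed by sequencing (ChIP-seq). Summits on chromosomes 1 to 22 and X counted as distal when they lay over 2500 bp from the start and end of every gene of any type. Distal neighbours at most 12000 bp apart were joined, and a cluster was called dense at 10 or more summits. The 590 clusters held 8550 of the 44074 distal H3K27ac summits, 19.4% (19.0 to 19.8), and together spanned 22.0 Mb. The clusters were selected on the positions of the H3K27ac summits, so their H3K27ac values are a description. Intervals in parentheses are 95% Wilson intervals and cover counting error only, since neighbouring summits share a library and a locus.

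In untreated wild-type cells of this 1 line the study mapped 3 marks of histone H3, each in 1 library: H3K27ac is acetylated lysine 27, H3K4me1 is lysine 4 with a single methyl group, and H3K4me3 is the fully methylated form of lysine 4. A library of input chromatin completed the 4 samples and was not analysed here. The H3K27ac, H3K4me1 and H3K4me3 lists held 70028, 86366 and 46078 summits. Their read depth is unknown, and with 1 library a mark no difference could be tested. Of 8 hepatocyte markers, SERPINA1, TF, FGB and CYP3A4 had an H3K27ac summit inside them or up to 1000 bp outside, while ALB, APOA2 and TTR had a summit of no mark. None of the 8 overlapped a dense cluster, against 1.85% of all protein-coding genes. Of 16 markers of endothelial, myeloid, lymphocyte and stellate cells, PECAM1 alone overlapped one, and 6 had H3K27ac.

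H3K27ac marks active promoters and active enhancers, the latter being stretches of DNA that raise transcription of a gene at a distance. H3K4me1 is found at enhancers and on the flanks of promoters, and H3K4me3 is the typical mark of active promoters. Enhancers are often grouped near genes that define a cell type or a tumour. Such groups are usually ranked by ChIP-seq signal. The lists used here give positions and scores without signal, so the clusters are groups of summits and were not called super-enhancers.

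Sequences from loci in these clusters are given first, because the values below return to them. The seventh largest cluster lay inside AOPEP, an aminopeptidase gene, at chr9:94988039-95092583. Its span holds MIR23B, MIR27B and MIR24-1, a group of microRNAs transcribed together. Their mature strands, 5′ to 3′ with the seed (bases 2 to 8) in capitals, are from RefSeq on GRCh38.p14, plus strand, at chr9:95085265-95085287, chr9:95085505-95085525 and chr9:95086064-95086085, and the 3 seeds differ from each other.
hsa-miR-23b-3p: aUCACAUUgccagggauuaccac
hsa-miR-27b-3p: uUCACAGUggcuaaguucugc
hsa-miR-24-3p: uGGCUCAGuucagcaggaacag
The nearest H3K4me1 summits were 664, 425 and 134 bp away, and the nearest H3K27ac summits 3967, 3728 and 3169 bp. The 3 miRNAs thus lay between acetylated sites, with H3K4me1 closer than H3K27ac.

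Start sites inside 2 other clusters show how differently H3K4me3 was placed. Both windows are the 250 bases before a RefSeq start site on the plus strand of GRCh38.p14, at chr5:14143092-14143341 for TRIO, a guanine nucleotide exchange factor, and at chr11:34632316-34632565 for EHF, an epithelial ETS-family transcription factor. Capitals mark the GC box searched for (GGGCGG on either strand).
TRIO: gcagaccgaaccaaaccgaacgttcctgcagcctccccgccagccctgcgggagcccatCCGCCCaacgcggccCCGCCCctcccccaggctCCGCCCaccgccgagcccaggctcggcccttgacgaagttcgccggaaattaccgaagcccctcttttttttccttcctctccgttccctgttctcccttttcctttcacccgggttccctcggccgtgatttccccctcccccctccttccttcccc
EHF: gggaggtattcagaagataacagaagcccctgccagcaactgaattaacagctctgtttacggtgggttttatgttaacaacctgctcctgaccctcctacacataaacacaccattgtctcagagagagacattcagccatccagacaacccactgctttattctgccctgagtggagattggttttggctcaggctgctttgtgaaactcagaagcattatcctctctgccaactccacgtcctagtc
At the TRIO start site an H3K27ac summit, at the gene boundary and so not counted as distal, lay 58 bp away and an H3K4me3 summit 63 bp away. The EHF start site, which is internal to the gene, had an H3K27ac summit at 32 bp, and its nearest H3K4me3 summit was 10594 bp away. The TRIO window holds 3 GC boxes and the EHF window none; the motif was present in 56.3% of all promoter windows searched. A match or its absence describes these letters only.

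The clusters ranged widely in size. They held 10 to 53 distal H3K27ac summits, with a median of 12 and quartiles of 11 and 16. At least 15 summits were present in 201 clusters, at least 20 in 81 and at least 30 in 16. Length ran from 6998 to 143905 bp, with a median of 33228.5 bp, and 110 clusters reached 50000 bp and 7 reached 100000 bp. Most clusters therefore sat near the threshold, with a short tail of large ones. Neighbouring summits were a median of 1674 bp apart, with 30.8% of gaps under 1000 bp and 17.2% over 5000 bp. The authors' H3K27ac score, a −log10 p-value or q-value used here only within the list, had a per-cluster median of 6.40 (range 3.49 to 28.4), and the highest score of a cluster had a median of 64.3 (range 7.36 to 188). Across the 590 clusters Spearman's rho was 0.72 between summit number and length and −0.025 between summit number and median score, as a description of regions that share a library. At the threshold, the 130 clusters of 10 summits had a median length of 22868.5 bp, 10 H3K4me1 and 2 H3K4me3 summits, and the 183 clusters of 9 had 20505 bp, 9 and 2.

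**Figure D1:**
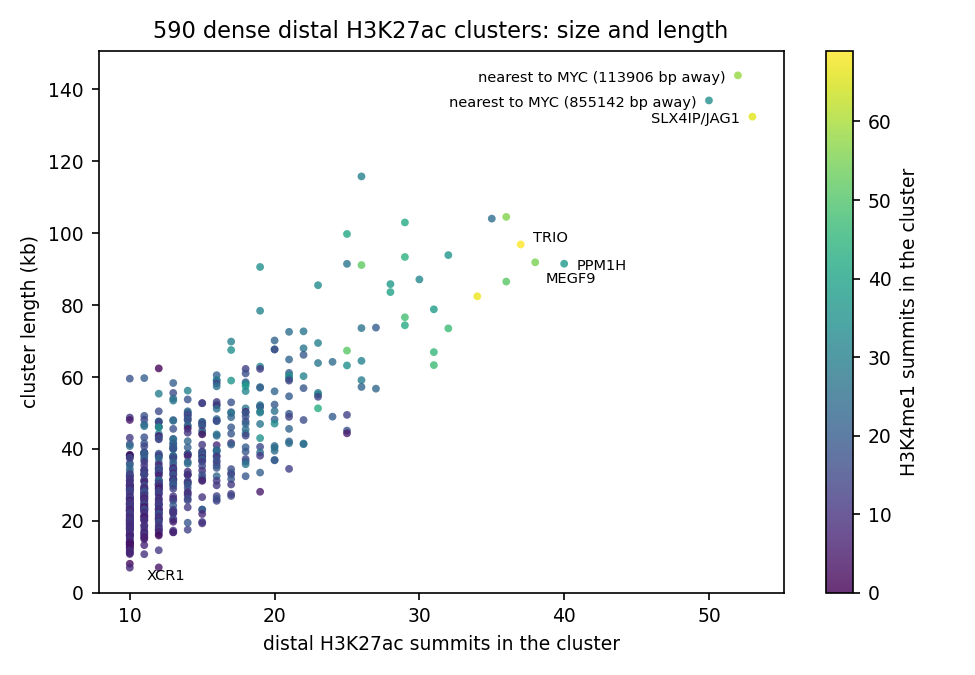
Each point is 1 of the 590 dense clusters, with its number of distal H3K27ac summits on the x axis, its length in kb on the y axis and its number of H3K4me1 summits as colour. The largest 3 lie at 50 to 53 summits, apart from the rest, and the shortest, nearest to XCR1, spans 6998 bp with 10 summits.

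H3K4me1 was present in nearly all dense clusters, as in most of the next smaller ones. The span between the first and last H3K27ac summit held a median of 14 H3K4me1 summits (range 0 to 69; quartiles 10 and 21), and 588 of 590 clusters (99.7%) had at least 1, against 95.5% of clusters of 5 to 9 summits, 61.2% of those of 2 to 4 and 40.7% of distal clusters of any size, whose spans are shorter. The spans together held 9759 H3K4me1 summits, 11.3% (11.1 to 11.5) of that list, and 332 clusters held more H3K4me1 than H3K27ac summits. An H3K4me1 summit lay within 1000 bp of 6109 of the 8550 clustered H3K27ac summits, 71.5% (70.5 to 72.4), against 64.6% (64.1 to 65.1) of the 35524 other distal H3K27ac summits, and the share over all distal summits was 65.9%. Per cluster this share had a median of 75%, reached 100% in 47 clusters and stayed under 50% in 80. The nearest H3K4me1 summit was a median of 479 bp away: 33.1% of clustered H3K27ac summits had one within 250 bp, 18.0% at over 250 and up to 500 bp, 20.3% at over 500 and up to 1000 bp, and 13.5% had none within 2000 bp.

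H3K4me3 was sparser than H3K4me1 in the clusters. It lay beside a smaller share of clustered than of other distal H3K27ac summits. A cluster held a median of 3 H3K4me3 summits (range 0 to 44), with at least 10 in 63 clusters, at least 20 in 8 and none in 79. Those 79 are 13.4% (10.9 to 16.4) of the clusters. The share was 34.8% for clusters of 5 to 9 summits, 63.6% for those of 2 to 4 and 73.6% for distal clusters of any size. Most of these are far shorter, and a lone summit has a span of 1 bp. H3K4me3 lay within 1000 bp of 1847 clustered H3K27ac summits, 21.6% (20.7 to 22.5), against 30.7% (30.3 to 31.2) of the other distal summits; over all distal summits the share was 29%. Neither H3K4 mark was found within 1000 bp of 24.7% (23.8 to 25.6) of the clustered summits. For clusters of 5 to 9, 2 to 4 and 1 summits this share was 22.0%, 22.4% and 29.1%. The dense clusters thus lay within the range of the smaller ones.

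By size class, the H3K4me3 share was lowest in dense clusters, while the H3K4me1 shares of the classes from 5 summits up were within counting error of each other. For clusters of 10 or more, 5 to 9, 2 to 4 and 1 summits, the share of H3K27ac summits with H3K4me3 was 21.6%, 26.05%, 32.8% and 33.6%, and the intervals of the last 2 overlap. The H3K4me1 shares in the same order were 71.5%, 71.2%, 65.5% and 50.9%. Within the dense clusters the shares did not run in order of size over the 3 groups of ranks given below. The H3K4me3 contrast was present in each of 4 equal groups of distal summits by H3K27ac score. In the group with the lowest scores, H3K4me3 was beside 10.4% of clustered and 17.2% of other summits, and in the group with the highest beside 45.5% and 52.6%. For H3K4me1 the lowest group gave 61.2% of clustered and 59.9% of other summits, and the highest 85.3% and 71.2%, so the H3K4me1 contrast was larger at high scores and within counting error at low ones. Clustered summits lay a median of 16145.5 bp from the nearest gene boundary, other distal summits 12157.5 bp. H3K4me3 was less frequent at clustered summits in each of 5 bands of that distance, with 18.8% against 31.2% at up to 5000 bp and 24.7% against 30.4% beyond 50000 bp. The H3K4me1 contrast was within counting error at up to 5000 bp, with 67.2% (64.3 to 69.9) of clustered and 65.4% (64.3 to 66.5) of other summits, and was widest beyond 50000 bp, with 70.5% (67.4 to 73.5) and 57.0% (55.4 to 58.5).

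**Figure D2:**
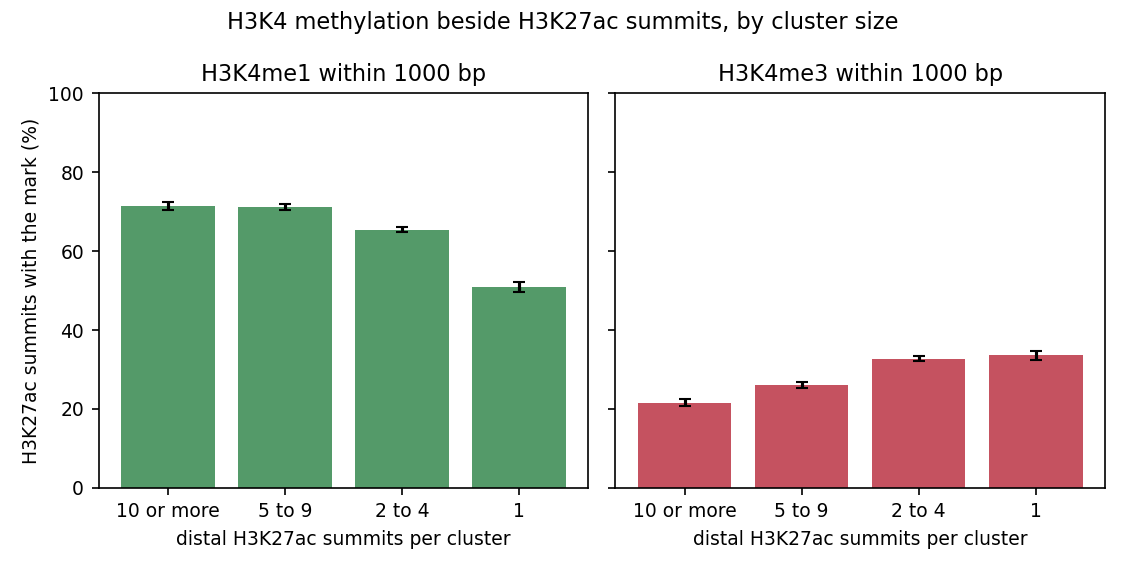
Bars give the share (%) of distal H3K27ac summits with an H3K4me1 summit (left) or an H3K4me3 summit (right) within 1000 bp, by the number of summits in the cluster, with 95% Wilson intervals. H3K4me1 reaches 71.5% in clusters of 10 or more and is 50.9% at lone summits, while H3K4me3 is lowest, 21.6%, in clusters of 10 or more.

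The H3K4 methylation inside the spans also differed by score, taken within each mark's own list. The median score of distal H3K4me1 summits was 5.42 in the spans and 4.58 elsewhere. Of the 10% of distal H3K4me1 summits with the highest scores, 24.4% (23.4 to 25.4) lay in the spans, and of the 10% with the lowest, 9.09% (8.43 to 9.79). Distal H3K4me3 ran the other way, with 4.96% (4.13 to 5.94) of the 10% that scored highest and 10.7% (9.50 to 12.1) of the 10% that scored lowest in the spans. Over all distal summits, 13.3% of H3K4me1 and 10.1% (9.75 to 10.5) of H3K4me3 lay in the spans. H3K4me1 in the clusters was thus drawn more from the upper end of its list. For H3K4me3 the highest scores were under-represented in the spans, while the share of the lowest was within counting error of all distal H3K4me3. The distal rule used gene starts and ends, and some H3K27ac summits lay at start sites inside genes. Off chromosome 8, where start sites were listed, 93 clustered summits (1.18%) and 1073 other distal summits (3.18%) lay within 1000 bp of one; of these, 41.9% and 79.2% had H3K4me3.

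The 15 largest clusters held 31 to 53 H3K27ac summits and 12 of them overlapped a protein-coding gene. The first lay over SLX4IP and JAG1, a ligand of Notch receptors, with 53 H3K27ac, 66 H3K4me1 and 8 H3K4me3 summits in 132422 bp. The next 2 were nearest to MYC, a growth-promoting transcription factor, with midpoints 113906 and 855142 bp from it. They held 52 and 50 H3K27ac summits, but 35 and 2 H3K4me3 summits. PPM1H, a phosphatase gene, had 40 and MEGF9 had 38. Beside 76.2% (72.6 to 79.5) of the summits of these 15 lay H3K4me1, and beside 30.5% (26.8 to 34.4) H3K4me3. In the 550 clusters ranked below 40 the shares were 71.7% (70.7 to 72.7) and 21.3% (20.3 to 22.2). These intervals treat summits of the same cluster as separate, and H3K4me3 was uneven among the 15. It lay beside 28 of 37 summits at TRIO and 32 of 52 in the first MYC cluster. In the SLX4IP and JAG1 cluster it was 8 of 53, and in the second MYC cluster 0 of 50. The 30.5% is therefore not a trait of each large cluster, and other distal summits had 30.7%.

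The next 25 clusters, ranked 16 to 40, held 23 to 30 H3K27ac summits over 44365 to 115802 bp, and 18 overlapped a protein-coding gene. Their H3K4me1 content ran from 5 to 52 summits and H3K4me3 from 0 to 24. H3K4me1 lay beside 64.4% (60.7 to 68.0) of their summits and H3K4me3 beside 17.8% (15.05 to 20.89).

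Several of these 25 lay at receptors and signalling genes. ERRFI1, an adaptor that inhibits EGFR and is itself induced by growth factors, had a cluster of 30 H3K27ac, 32 H3K4me1 and 11 H3K4me3 summits at chr1:8014523-8101672. NRP1, a co-receptor for semaphorins and VEGF, had 26, 52 and 5 at chr10:33235481-33326635, and the H3K4me1 number was the highest of the 25. LRP5, a Wnt co-receptor, had 23, 33 and 9. SMURF1, a ubiquitin ligase that targets receptor-activated SMAD proteins, had 25, 18 and 14 in 45125 bp, so its H3K4me3 number came close to its H3K4me1 number. PRKCH, a protein kinase C, had 26, 31 and 1. The cluster nearest to TNFRSF21, a death receptor, lay 89430 bp away with 25, 27 and 1.

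HES1, EHF and NSMCE2 encode nuclear proteins. The HES1 cluster, over a repressor induced by Notch and over LOC102724877, had 29 H3K27ac, 42 H3K4me1 and 7 H3K4me3 summits. The EHF cluster spanned 99795 bp at chr11:34585399-34685193 with 25, 41 and 3, and includes the start site without H3K4me3 shown above. NSMCE2, a SUMO ligase of the SMC5/6 complex, had 26, 22 and 5.

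Others of the 25 lay at enzymes and transporters. EXT1, a polymerase of heparan sulfate chains, had 29 H3K27ac, 44 H3K4me1 and 24 H3K4me3 summits, with H3K4me3 within 1000 bp of 23 of its 29 H3K27ac summits. The glycolytic hexokinase HK1 had 29, 48 and 10. The drug and conjugate exporter ABCC1 had 29, 42 and 11. PTGIS, prostacyclin synthase, had 28, 37 and 4, and CYP24A1, the hydroxylase that inactivates vitamin D, had 28, 40 and 1. SLC40A1, the iron exporter ferroportin, had a cluster 35719 bp from its nearest boundary with 24, 20 and 3. A second AOPEP cluster had 26, 29 and 2.

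Of the remaining clusters of rank 16 to 40, the one over ACTN4, an actin cross-linker, and EIF3K had 24 H3K27ac, 24 H3K4me1 and 20 H3K4me3 summits. DIP2B had 25, 51 and 20. ERC2 and DLGAP1, scaffold genes best known from synapses, had 26, 26 and 1 and 25, 34 and 12. Clusters outside protein-coding genes were nearest to MREG, TOMM20, NXNL2, LYZL1 and USP12. The MREG and TOMM20 clusters held 27 H3K27ac summits each, 20 and 23 H3K4me1 summits and 0 H3K4me3. The NXNL2 cluster was among the 5 longest at 115802 bp, with 26, 30 and 3. At LYZL1 the numbers were 25, 13 and 1. The USP12 cluster, on chromosome 13, had 25 H3K27ac, 5 H3K4me1 and 0 H3K4me3 summits.

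**Figure D3:**
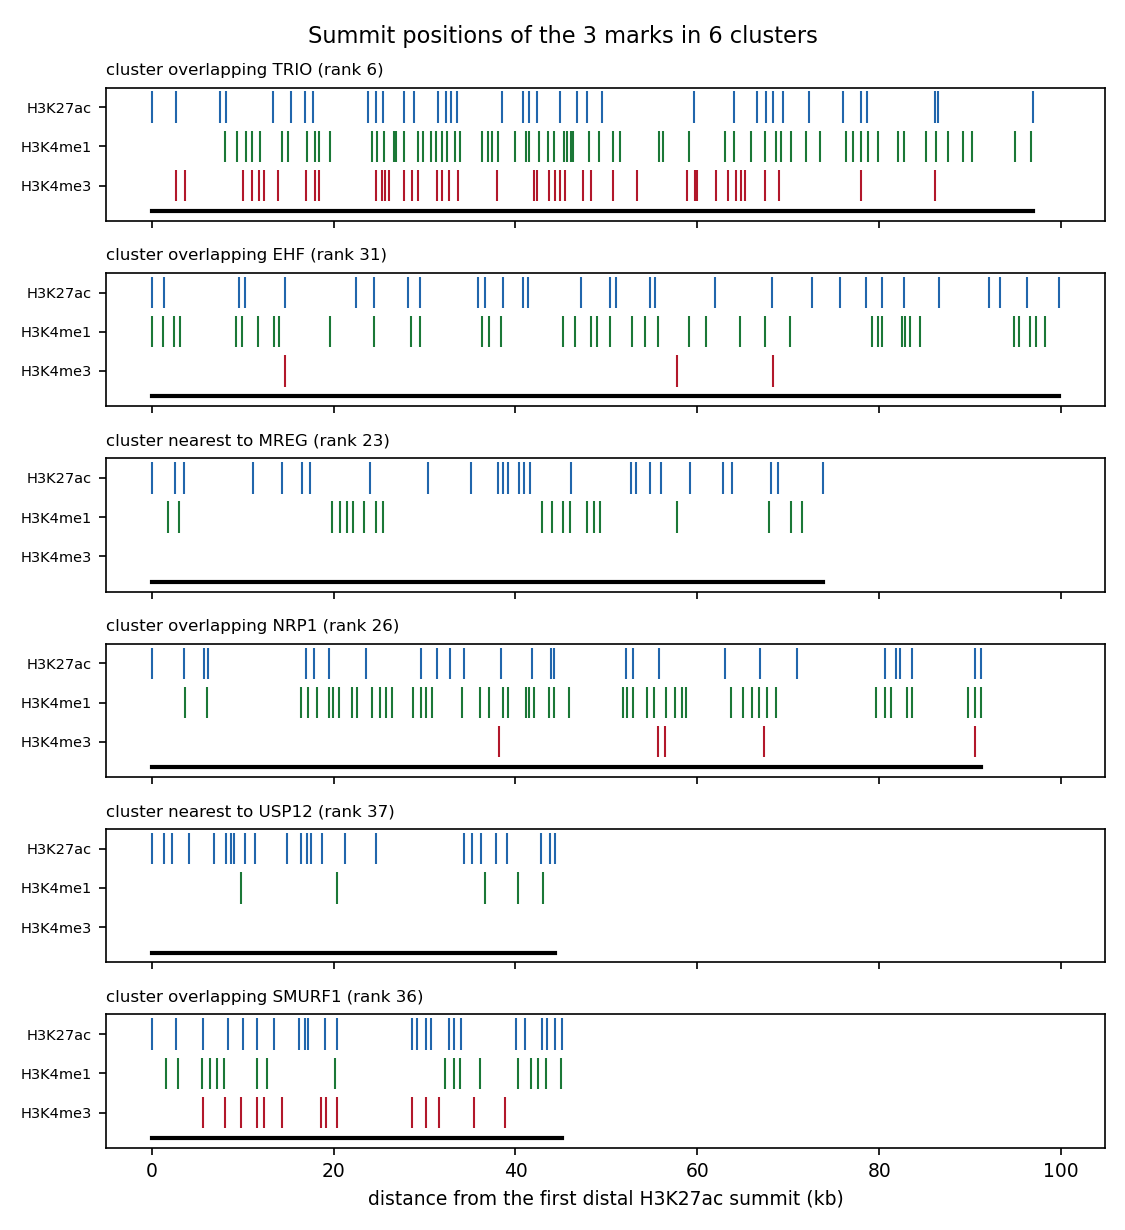
Ticks mark every summit of the 3 marks along 6 clusters, as distance in kb from the first distal H3K27ac summit, with the black bar showing the cluster span. TRIO carries 44 H3K4me3 summits and SMURF1 14, spread over much of the span, EHF carries 3 and NRP1 5, and the clusters nearest to MREG and USP12 carry 0.

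The clusters with most H3K4me3 were led by TRIO. This cluster, sixth in size at chr5:14140722-14237607, had 37 H3K27ac, 69 H3K4me1 and 44 H3K4me3 summits, the highest H3K4me1 and H3K4me3 numbers of all 590. After the MYC cluster with 35 came EPS8, a regulator of actin capping and bundling, with 18, 38 and 28, then EXT1 with 24 and SEPTIN9, a GTP-binding filament protein, with 32, 36 and 21. EPS8 held more H3K4me3 than H3K27ac summits. In these 5 clusters H3K4me3 lay beside 28 of 37 summits at TRIO, 32 of 52 at MYC, 12 of 18 at EPS8, 23 of 29 at EXT1 and 11 of 32 at SEPTIN9.

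By H3K4me1 per length the first was the shortest cluster, nearest to the chemokine receptor gene XCR1, with 11.4 H3K4me1 summits per 10 kb against a median of 4.48. It was followed by NCOR1, a nuclear receptor corepressor, at 10.1, ECE1, endothelin-converting enzyme, at 9.74, the cluster nearest to IGSF23 at 9.31 and TBC1D8 at 9.16. All 5 had 10 to 14 H3K27ac summits and were shorter than the lower quartile of length, 24282 bp. The 5 clusters with fewest H3K4me1 summits were at RASA3, a Ras GTPase-activating protein, and nearest to SLITRK5, with 0 each, nearest to SERP2 with 1, and nearest to NRIP1, a nuclear receptor cofactor, and MYC with 2 each. RASA3, SLITRK5 and SERP2 are on chromosome 13.

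The highest median H3K27ac scores belonged to small clusters of 10 summits each. They were nearest to PIK3R1, a regulatory subunit of phosphoinositide 3-kinase, at 28.4, nearest to PLEKHA5 at 20.7, in FNDC3B at 20.6, nearest to PTMA at 19.3 and nearest to NEDD4L, a ubiquitin ligase, at 18.7. Their H3K4me3 numbers were 0, 2, 8, 5 and 0. The 5 farthest from any protein-coding boundary had SLITRK5 at 1711896 bp, MYC at 855142 and 756390 bp, UQCRFS1 at 724384 bp and CBLB at 669233 bp as the nearest gene, with 2, 2, 1, 1 and 0 H3K4me3 summits.

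Clusters overlapped genes more often than smaller ones did, while single summits lay inside genes about as often. Of the 590, 260 (44.1%) lay inside 1 protein-coding gene and 117 (19.8%) partly in one, 377 in all or 63.9% (59.9 to 67.7), against 55.3% (54.5 to 56.1) of the distal clusters under 10 summits, which are shorter, and 55.6% of distal clusters of any size. Counted by summit, 56.4% (55.4 to 57.5) of clustered and 54.6% (54.1 to 55.1) of other distal H3K27ac summits lay inside a protein-coding gene. A further 99 (16.8%) overlapped a long noncoding RNA (lncRNA) gene and no protein-coding gene, and 114 (19.3%) neither. Clusters partly in a gene held a median of 19 H3K4me1 and 5 H3K4me3 summits, those inside a gene 15 and 3, those with lncRNA only 12 and 2, and those with neither 12 and 2. Their median lengths in the same order were 40806, 32445.5, 32775 and 28241 bp. Spans partly in a gene also contain a gene start or end. The part of length and of gene boundaries in these numbers was not tested. The midpoint was over 100000 bp from every protein-coding boundary in 103 clusters and over 500000 bp in 10. Where strand was known, 126 of 210 clusters inside a gene lay nearer its start than its end, 60.0% (53.3 to 66.4), close to the 56.1% of other distal summits inside genes. With the gene divided into 5 equal stretches from its start, the clusters numbered 35, 62, 47, 46 and 20. A cluster inside a gene covered a median of 19.4% of it.

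A total of 366 protein-coding genes overlapped a dense cluster, 1.85% of 19821. With the gene nearest to each cluster added, 554 genes were counted, 2.8% of all. The share grew with gene length, with 37 of 8855 genes under 20000 bp (0.418%), and 192 of 3350 genes of at least 100000 bp (5.73%). A single cluster was present in 332 genes, 29 had 2 and 5 had 3 or more, named here because of these values. RAD51B, a gene of homologous recombination repair, had 4 clusters, of 21, 19, 16 and 15 H3K27ac summits, with 2, 0, 0 and 0 H3K4me3 summits. AOPEP had 3 clusters, of 36, 26 and 20 H3K27ac summits, and NRCAM, a neuronal cell adhesion molecule, had 3, of 18, 14 and 11. PRKCA, protein kinase C alpha, had 3, of 16, 12 and 11, and RAB31, a small GTPase of vesicle traffic, 3 of 10. In AOPEP, 16, 2 and 0 H3K4me3 summits lay in these clusters, so most were in the largest, as in RAD51B.

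Overlapped genes had a start site with promoter marks more often than other genes did. A gene counted when any of its listed start sites had the mark. The 292 overlapped genes with a listed start site had 554 promoter windows, and the 15520 other genes had 21578. The part of this difference in the shares was not tested. Of the 292 with a listed start site, 227 had H3K4me3 within 1000 bp, 77.7% (72.6 to 82.1), against 61.7% (60.9 to 62.4) of genes without a cluster; over all genes it was 62%. H3K4me3 and H3K27ac at the same start site were found in 70.2% (64.7 to 75.2) and 52.8% (52.0 to 53.5), and over all genes in 53.1%. The overlapped genes were selected through H3K27ac, and a listed start site can lie inside a cluster. Off chromosome 8, 93 clustered summits lay within 1000 bp of such a site. The H3K27ac part of this share is therefore not independent of the selection. Among genes of at least 100000 bp the H3K4me3 shares were 80.9% (73.9 to 86.4) and 65.2% (63.3 to 67.0). In the 554 promoter windows of overlapped genes, the AP-1 motif TGANTCA was found in 9.03% (6.91 to 11.7), against 6.08% of other windows and 6.15% of all. The TEAD motif GGAATG was found in 13.4% and 12.2% (all 12.2%), the GC box in 57.4% and 56.3%, and TATAAA in 7.94% and 9.50% (all 9.46%), counted on both strands. Overlaps between different motifs were not counted. Genes with several start sites gave several windows, some of them overlapping, and each was counted. The AP-1 interval treats these windows as separate and is therefore too narrow.

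Genes of known function were followed through 26 lists, of which 22 named 559 symbols in all and 24 are given by count. Of the 558 matched, 53 overlapped a dense cluster, against 1.85% of all protein-coding genes. The lists were written with earlier results of these data known, so their counts are a description. Gene length moves with this share, so the number among genes of at least 100000 bp (long genes), where 5.73% of all genes had a cluster, stands beside each list count given below where the list holds any; the part of length in the list counts was not tested.

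Several genes of the actin cytoskeleton had a cluster. MYH9, the heavy chain of non-muscle myosin IIA, had 32 H3K27ac, 47 H3K4me1 and 14 H3K4me3 summits, and ACTN4 had 24, 24 and 20. The unconventional myosin MYO1E had 19, 27 and 17, the GTPase RAC1 15, 20 and 6, and BAIAP2L1, which links Rac to membrane curvature, 14, 22 and 7.

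Integrin and matrix adhesion genes had a cluster in 5 of 30 cases (4 of 13 long genes). LPP, a focal adhesion protein, had 2 clusters, with 21 H3K27ac, 38 H3K4me1 and 11 H3K4me3 summits and with 17, 19 and 9. TNS3, which tethers integrins to actin, had 23, 30 and 8, the adaptor BCAR3 17, 28 and 5, the integrin subunit ITGB5 12, 13 and 1 and the adaptor BCAR1 10, 9 and 2. Among extracellular matrix genes, 4 of 30 (1 of 11 long genes) had one. Fibronectin, FN1, had 21, 13 and 15, so H3K4me3 exceeded H3K4me1. FBLN1, a fibulin, had 16, 10 and 1, and COL18A1, a collagen, 10, 10 and 3. Of 27 epithelial junction genes the polarity protein PARD3 alone (1 of 11 long genes) had one, with 12, 17 and 4.

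Among TGF-beta and BMP genes 5 of 33 had a cluster (2 of 11 long genes). The ligand TGFB2 had 17 H3K27ac, 20 H3K4me1 and 4 H3K4me3 summits, and the receptor TGFBR2 had 16, 11 and 3. SMAD3, the transducer that carries the signal to the nucleus, had 2 clusters of 18, 19 and 3 and of 13, 18 and 17. The inhibitors SMAD6, with 10, 14 and 2, and SMURF1, described above, also had one. The list thus held a ligand, a receptor, a transducer and inhibitors with a cluster.

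Wnt genes had a cluster in 4 of 28 cases (3 of 12 long genes). Besides LRP5, these were the receptor FZD5 with 15 H3K27ac, 17 H3K4me1 and 4 H3K4me3 summits, the transcription factor TCF7L2 with 13, 26 and 3 and the kinase TNIK with 11, 7 and 5. Among receptor tyrosine kinases and their adaptors it was 5 of 36 (4 of 18 long genes). The hepatocyte growth factor receptor MET had 18, 17 and 17, EGFR 12, 19 and 10 and IGF1R 12, 31 and 10. The feedback inhibitors SPRED2, with 20, 25 and 15, and ERRFI1 also had one. At MET the H3K4me1 and H3K4me3 numbers were equal.

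Epithelial and progenitor transcription factors had a cluster in 5 of 32 cases (1 of 12 long genes). Besides HES1 and EHF, RUNX1 had 2 clusters of 12 H3K27ac summits each, the ETS factor ETS2 1 of 11 and the zinc finger gene ZNF217 1 of 11. Chromatin regulators had one in 4 of 28 cases (4 of 14 long genes). The deacetylase HDAC4 had 18 H3K27ac, 32 H3K4me1 and 13 H3K4me3 summits, the demethylase KDM6A 12, 13 and 14 and NCOR1 12, 12 and 6.

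The liver lists came to 2 genes each for transcription factors and hepatocyte function. Of 27 liver transcription factors (2 of 8 long genes), RXRA, the shared partner of many nuclear receptors, had 14 H3K27ac, 24 H3K4me1 and 4 H3K4me3 summits, and TCF7L2 was the other. Of 35 hepatocyte function genes, 2 had a cluster (1 of 4 long genes), the glucuronosyltransferase UGT2B7 with 15, 6 and 1 and the bile salt exporter ABCB11 with 14, 19 and 2. The fetal list had HMGA2, an architectural chromatin protein, with 11, 18 and 5, 1 of 20 (1 of 6 long genes). Of 32 lipid and sterol genes (1 of 10 long genes), PPARG, a nuclear receptor of lipid metabolism, had 20, 25 and 11 and SREBF1, a transcription factor of lipid synthesis, 10, 5 and 3.

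The remaining lists had few members with a cluster or none. FOSL2 was 1 of 20 AP-1 and stress factors (0 of 3 long genes), with 15 H3K27ac, 19 H3K4me1 and 0 H3K4me3 summits. BCL2L1, an inhibitor of apoptosis, was 1 of 28 cell cycle and tumour genes (0 of 11 long genes), with 10, 10 and 2. No cluster overlapped any of 24 YAP and TEAD genes and targets (9 of them long), 22 proliferation genes, 20 housekeeping genes or the 12 genes each of the myeloid, lymphocyte (1 long) and stellate (2 long) lists. A count of 0 in these allows a share of up to 13.8%, 14.9%, 16.1% and 24.2%, the upper Wilson limits. Of 12 endothelial genes 2 had one (0 of 5 long genes), PECAM1 with 2 clusters of 13 and 12 and LYVE1 with 12 in a cluster shared with RNF141. Among gene families, 1 of 80 cytosolic ribosomal protein genes (RPS15, beside DAZAP1), 1 of 477 ZNF genes (ZNF217; 0 of 27 long genes) and 0 of 387 olfactory receptor genes (5 of them long) overlapped one.

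**Figure D4:**
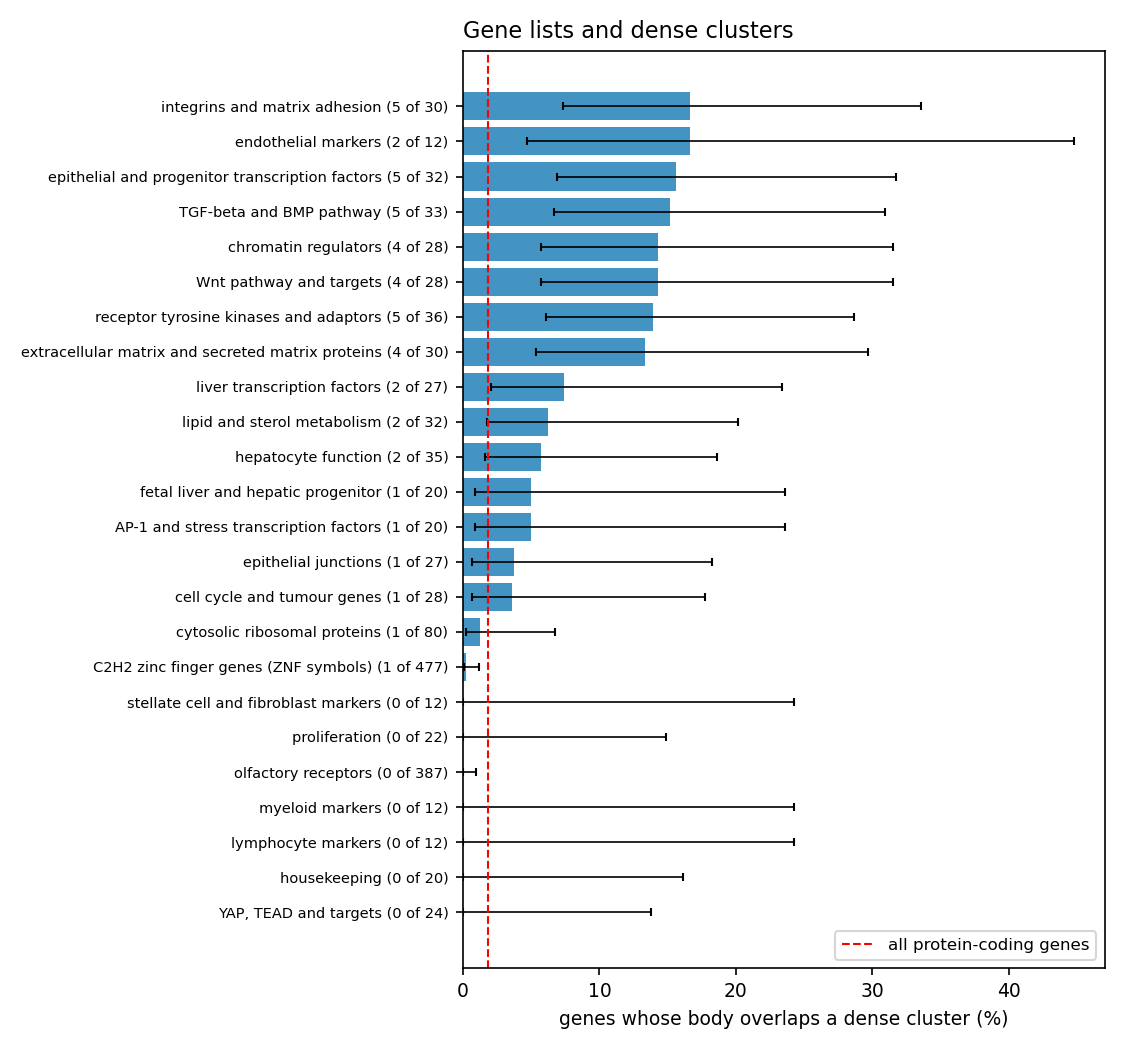
Bars give the share (%) of each list's genes whose body overlaps a dense cluster, with 95% Wilson intervals and the count beside the name. The dashed line is the share over all protein-coding genes, 1.85%. The lists were written with earlier results of these data known. The integrin and matrix adhesion list (5 of 30) and the endothelial list (2 of 12) are both at 16.7%, and 7 of the 24 lists drawn are at 0.

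Noncoding genes were also found in the spans. A lncRNA gene overlapped 163 clusters (27.6%). No such share for the smaller distal clusters, which are shorter, stands beside it, so it is not a trait of the dense ones. The second largest cluster overlapped PVT1, the lncRNA gene neighbouring MYC, and the third LINC00824. Of 1911 miRNA genes, 20 lay within a span, in 15 clusters. Besides the miR-23b group, MIR6870 lay in the JAG1 cluster and MIR4799 in the ARHGAP10 cluster, where an H3K27ac summit was 26 bp from the miR-4799-5p sequence; these miRNAs are named because of their place.

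Some clusters were neighbours of each other. With edges at most 100000 bp apart, 436 stood alone, 56 groups had 2 clusters, 11 had 3, 1 had 4 and 1 had 5. The group of 5, which ends at HES1 and begins near OPA1, a mitochondrial fusion gene, covered 373237 bp at chr3:193777447-194150683 with 83 H3K27ac, 94 H3K4me1 and 13 H3K4me3 summits. The group of 4 covered PPP4R1 and RAB31 on chromosome 18 with 40, 36 and 5. The 3 clusters of AOPEP formed a group of 82, 106 and 18. These groups are named because of their size, and H3K4me1 outnumbered H3K27ac in the groups at HES1 and AOPEP.

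Clusters were found on every chromosome analysed, and H3K4me1 and H3K4me3 stood apart on 1 of them. The share of distal H3K27ac summits in dense clusters was highest on chromosomes 8 (26.3%) and 20 (25.8%) and lowest on chromosomes 5 and X (both 12.8%). Chromosome 13 had 5 clusters with 75 H3K27ac summits, of which 13.3% had H3K4me1 within 1000 bp, against 8.49% of the other distal summits there. On the other chromosomes the share in clusters ran from 62.0% on chromosome 14 to 84.6% on chromosome 22. H3K4me3 lay beside 2 of the 75 clustered summits of chromosome 13, 2.67% (0.734 to 9.21), against 17.0% of the other distal summits there, and beside 14.3% to 31.1% of clustered summits on the other chromosomes. On chromosome 13 the H3K4me1 list held 98 summits in all, the H3K4me3 list 596 and the H3K27ac list 920. Without chromosome 13 there were 585 clusters, with a median of 14 H3K4me1 summits and 72.0% of H3K27ac summits with H3K4me1. The low H3K4me1 numbers at USP12, SERP2, SLITRK5 and RASA3 stand beside these chromosome-wide values, whose part in them was not tested.

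**Figure D5:**
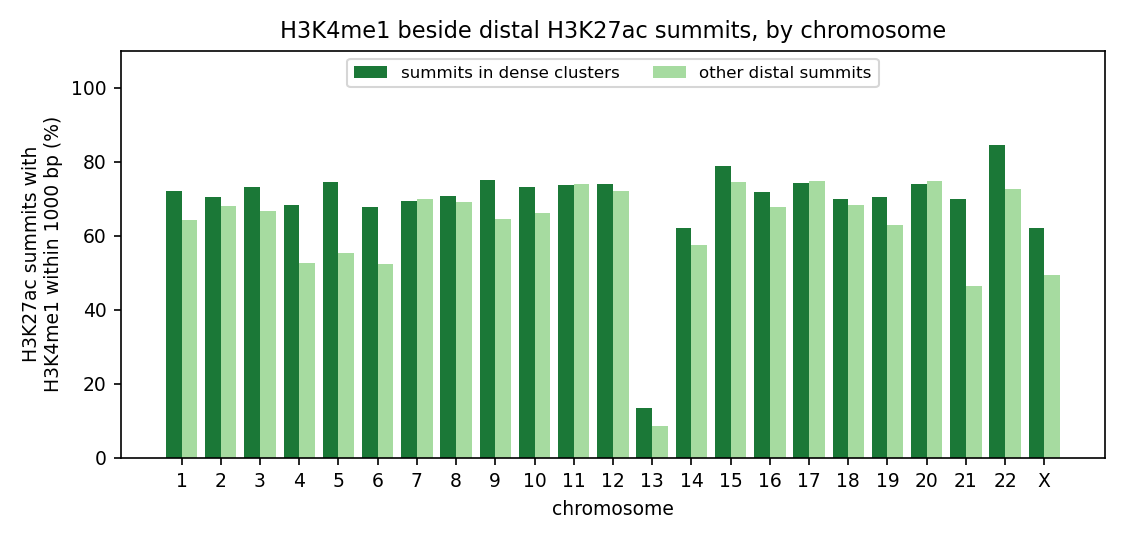
Bars give, for each chromosome, the share (%) of H3K27ac summits with H3K4me1 within 1000 bp, for summits in dense clusters (dark) and other distal summits (light). Chromosome 13 is at 13.3% and 8.49%, below all others, and chromosome 22 has the highest share in clusters at 84.6%.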

How the data were processed

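The processing notes of the submitters name Bowtie, Picard, deepTools and MACS2 and the build hg38, with versions, settings and the use of the input not given in the sources used here. Each mark has 1 list of summits, as deposited by the authors, with a position and a −log10 score; whether it is of a p-value or a q-value could not be settled. The lowest scores were 1.30, 1.33 and 1.31 for H3K27ac, H3K4me1 and H3K4me3. Summits outside chromosomes 1 to 22 and X (273, 61 and 185) were left out.

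Boundaries of 58419 genes came from RefSeq (GRCh38.p14), with the same chromosome coordinates as hg38; 679 entries on scaffolds or patches were left out. Start sites, off chromosome 8, came from the RefSeq promoter table, which covers 15812 protein-coding genes. A cluster was counted at a gene where the gene body overlaps it, otherwise at the nearest protein-coding boundary to its midpoint. H3K4me1 and H3K4me3 were counted from first to last distal H3K27ac summit, and co-location meant within 1000 bp. These counts were not limited to distal summits, and 248 spans contain a gene start or end. They include 712 H3K4me1 and 254 H3K4me3 summits within 2500 bp of one. Each list is 1 library, so no test was made. Depth is unknown.

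Genes named were those of the clusters ranked 16 to 40, of the 5 largest, of up to 5 clusters at each extreme (length, H3K4me1 per length, fewest H3K4me1, most H3K4me3, median score, distance), and list members with a cluster, 6 a list at most; some of these are not reported here. The clusters and lists were chosen with earlier results of these data known. The joining was tested on simulated summits. Python 3.11.15 with pandas 2.3.3, numpy 2.4.6, scipy 1.17.1 and matplotlib 3.10.9 was used. Alternatives covered the join distance, the distal distance, the minimum number of summits, score minimums, the co-location window, the counting margin and the genes used.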

Additional observations from a re-analysis of the deposited data

How the results depend on the processing

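Both contrasts kept their direction under the 15 alternatives in which they were computed: 6.84 percentage points for H3K4me1 beside clustered against other distal H3K27ac summits ran from 3.59 to 11.5, and −9.13 for H3K4me3 from −10.5 to −7.4. Of 141 values under alternatives, 54 moved beyond counting error or, for counts, by a wide margin. A join distance of 5000 bp left 217 clusters of median length 18122 bp with a median of 9 H3K4me1 summits, 28.1% of them without H3K4me3, 23 list genes and contrasts of 5.08 and −7.42 points. At 20000 bp the median length was 49799.5 bp, the median H3K4me1 number 17 and the share over a protein-coding gene 69%. A distal distance of 1000 bp gave 35528 bp, 68.3% over a gene and contrasts of 8.77 and −10.5. A distal distance of 5000 bp gave 30159 bp, 17.8% without H3K4me3, 31 list genes and an H3K4me3 contrast of −7.74. With at least 8 summits there were 972 clusters, of 26453.5 bp and 11 H3K4me1 summits, with H3K4me3 beside 22.7% of summits and absent from 16.6% of clusters. With at least 15 there were 201, of 49045 bp and 22 H3K4me1 summits, with 20.6% of summits beside H3K4me3, 70.6% over a gene, 26 list genes and an H3K4me1 contrast of 5.52. Keeping H3K27ac scores of at least 5 left 151 clusters, of 37421 bp and 18 H3K4me1 summits, with H3K4me1 beside 77.7% and H3K4me3 beside 28.1%, 9.93% without H3K4me3, 19 list genes and contrasts of 9.52 and −8.02. Keeping H3K4me1 and H3K4me3 scores of at least 5 gave 8 H3K4me1 summits, 48.6% and 14.4%, 24.1% without H3K4me3 and contrasts of 9.44 and −7.62. Co-location within 500 bp gave 51.2%, 14.8% and an H3K4me1 contrast of 3.59, and within 2000 bp 86.5%, 30.5% and contrasts of 11.5 and −7.4. Among alternatives chosen after seeing the data, leaving out summits within 2500 bp of listed start sites gave contrasts of 5.42 and −7.95, and the scaffold genes, chromosome 13 or the 15 largest clusters moved none of the values. The number of clusters thus depends on the limits that define them, and weak summits make up many of them: a score minimum of 5 left 151 of 590. No paired analysis was possible because each mark has 1 library. Read depth, peak width and signal are unknown, so neither a cluster's strength nor the share of cells that carry it can be given.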
